A study of Chlamydomonas reinhardtii with 12 samples.

Results

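The minor photosystem II antenna genes of the green alga Chlamydomonas reinhardtii are described here in PDS knockout and parental cultures kept in darkness. They were LHCB4 (CP29, Cre17.g720250), LHCB5 (CP26, Cre16.g673650) and LHCB7 (Cre02.g110750), chosen by name and not by their values, and they made up 3 of the 17744 identifiers counted. The pairing of each name with its identifier comes from general knowledge and could not be checked in the files. Polyadenylated RNA was counted as 3′ tags by CEL-Seq, a barcoded method adapted from single-cell work, in 12 libraries of pooled cells labelled as vegetative cells in liquid culture. The title of the series says that the knockout lines lack carotenoids and were made with Cas9 ribonucleoprotein complexes, and the design sets them against wild type after 4 weeks of darkness at 25 °C.

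The 6 PDSKO libraries carried a knockout of phytoene desaturase, an early enzyme of carotenoid synthesis. PDSKO 1 to 4 came from line E10, and PDSKO 5 and PDSKO 6, titled 2A and 2D, were read as the lines named A2 and D2 elsewhere in the labels and are called so below. PDSKO cells were grown in TAP, an acetate medium, without arginine. After harvest they were sorted by flow cytometry to remove cells that held the plasmid without the knockout and possible revertants. For WT, 6 libraries were made from the parental line, CC-3403, grown in TAP with 10 µg/mL arginine and with no sorting described. CC-3403 is the line given for all 12 samples, but the titles of WT 1 to 3 begin with X3404VE, and the labels do not say whether this names another strain. Libraries are numbered by the library names in the labels, not by the titles, in which WT 4 to 6 appear as WT1 to WT3. Medium, sorting and plasmid therefore differed with genotype and cannot be told apart from it. Titles divided the libraries into a first set, E10 with WT 1 to 3, and a second set, A2 and D2 with WT 4 to 6. E10, A2 and D2 are selected transformants, so A2 and D2 contributed 1 library each. The 6 parental samples are called independent, but no label gives separate cultures for the libraries of a line. The p-values below therefore measure only the spread between these samples, which may be technical.

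Antenna proteins hold chlorophyll and carotenoids and pass light energy to the photosystems. CP29 and CP26 each bind beside the photosystem II core as single proteins and connect it to trimers of the major antenna, which the LHCBM genes encode, while LHCA genes encode the antenna of photosystem I. CP29 is also phosphorylated in Chlamydomonas when antenna moves between the photosystems. LHCB7 is a related antenna protein, described in Arabidopsis as rarely expressed.

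Total counts ran from 6279 to 475103 in PDSKO and from 1393032 to 35992976 in WT, so that 1 count stood for 159 CPM (counts per 1000000 counts of a library) in PDSKO 2 and for 0.0278 CPM in WT 2. PDS1, the targeted gene, had 2 counts in each of PDSKO 2 and PDSKO 4, which came to 319 and 122 CPM, and 0 in the other 4 PDSKO libraries, against 61.7 ± 31.2 CPM in WT (SD, n = 6), so no loss was detectable in E10 at this depth. Over A2 and D2 the floor of 3 counts was 5.87 CPM, at least 8.18-fold below the WT 4 to 6 mean of 48.0 CPM, with most of that depth from A2. D2 alone had a floor of 83.2 CPM, above all of WT 4 to 6 (21.6 to 74.9 CPM), so no loss was detectable in D2 by itself. All 4 tubulin genes examined were counted in every WT library. In A2 and D2, 2 of the 4 passed the test as lower, against 7.49% of all identifiers tested, with TUB1 at 4 and 0 counts. The gamete gene GSP1 had 0 counts in all PDSKO libraries, with floors of 6.31 to 478 CPM, and 1.86 to 13.7 CPM in WT, and all these floors but that of A2 lay above every WT level. Several libraries stood apart. The 21 antenna identifiers together took 8.17% of counts in PDSKO 1 and 0.207% to 1.72% in the other PDSKO libraries, and 0.427% and 0.391% in WT 2 and WT 3 against 7.80% to 13.6% in the other WT libraries. One identifier, Cre07.g323800, took 43.3% of the counts of A2. In bulk RNA, fewer cells of a type and less RNA per cell cannot be told apart.

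LHCB4, which encodes CP29, was counted in every library. Its level was 5268.5 CPM in PDSKO 1, 1115 in PDSKO 2, 1767 in PDSKO 3 and 4287 in PDSKO 4, all of line E10, and 966 in A2 and 4825 in D2. It was 8425 CPM in WT 1, 1707 in WT 2, 1718 in WT 3, 8122 in WT 4, 12040.1 in WT 5 and 12301 in WT 6. The groups overlapped, because WT 2 and WT 3 lay below PDSKO 1, PDSKO 3, PDSKO 4 and D2. Within the second title set they did not: both A2 and D2 lay below all of WT 4 to 6, as for 41% of the 8042 identifiers tested. LHCB4 averaged 3038 ± 1966 CPM in PDSKO and 7385.5 ± 4729 CPM in WT (SD, n = 6 each).

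The counts behind these levels were small in the knockout libraries. PDSKO 2 held 7 LHCB4 counts, with an exact Poisson 95% interval of 448 to 2297 CPM that included the levels of WT 2 and WT 3. A2 held 459 counts (880 to 1059 CPM) where the mean level of WT 4 to 6 would have given 5141, and D2 held 174 (4135 to 5598 CPM) where it would have given 390. The intervals of A2 and D2 did not meet, so the libraries of these lines differed beyond counting error. With Cre07.g323800 left out of the total, A2 stood at 1703 CPM and was still the lower of the pair. Intervals and floors cover counting error only.

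LHCB5, which encodes CP26, followed a similar order. Its level was 1459 CPM in PDSKO 1, 442 in PDSKO 3 and 429 in PDSKO 4, and 189 in A2 and 638 in D2. None of the 6279 counts of PDSKO 2 was from LHCB5, and the floor of 3 counts there was 478 CPM. In WT libraries 1 to 6 LHCB5 stood at 3009, 399, 326, 2455, 2226 and 1887 CPM. WT 2 and WT 3 were again the lowest WT libraries, below PDSKO 1, PDSKO 3, PDSKO 4 and D2, and PDSKO 1 was the highest knockout library. LHCB5 averaged 526 ± 508 CPM in PDSKO and 1717 ± 1111 CPM in WT (SD, n = 6 each). A2 held 90 LHCB5 counts where the mean of WT 4 to 6 would have given 1040.2, and D2 held 23 where it would have given 79.0. With Cre07.g323800 left out of the totals, LHCB5 stood at 334 CPM in A2 and 667 in D2.

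LHCB7 was near the limit of detection in the knockout libraries. PDSKO libraries held 5 LHCB7 counts in all, 4 in A2 and 1 in PDSKO 2, and the other 4 libraries held 0. The 4 counts of A2 gave 8.42 CPM (exact Poisson 95% interval 2.29 to 21.6 CPM), and the floors of the libraries at 0 ran from 74.2 to 184 CPM. These floors lay above every WT level, so in those libraries no difference was detectable at this depth. LHCB7 stood at 27.6 CPM in WT 1, 25.4 in WT 2, 24.6 in WT 3, 10.96 in WT 4, 3.35 in WT 5 and 14.4 in WT 6. All of WT 1 to 3 were above all of WT 4 to 6, as for 22.2% of the 13040 identifiers tested. WT 2 and WT 3, low in LHCB4 and LHCB5, lay close to WT 1 in LHCB7. With Cre07.g323800 left out of the totals, A2 stood at 14.8 CPM, and WT 4, WT 5 and WT 6 at 11.2, 3.51 and 15.2 CPM. The pooled values below keep that identifier. Pooled, PDSKO had 8.44 CPM (2.74 to 19.7 CPM), with 475103 of its 592307 total counts from A2. Pooled WT had 23.4 CPM, with most LHCB7 counts from WT 1 to 3, and the mean over the 6 WT libraries was 17.7 CPM. The pools thus weigh the title sets differently. The pooled A2 and D2 level of 7.83 CPM (2.13 to 20.04 CPM) had an interval that held the WT 4 to 6 mean of 9.56 CPM.

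**Figure D1:**
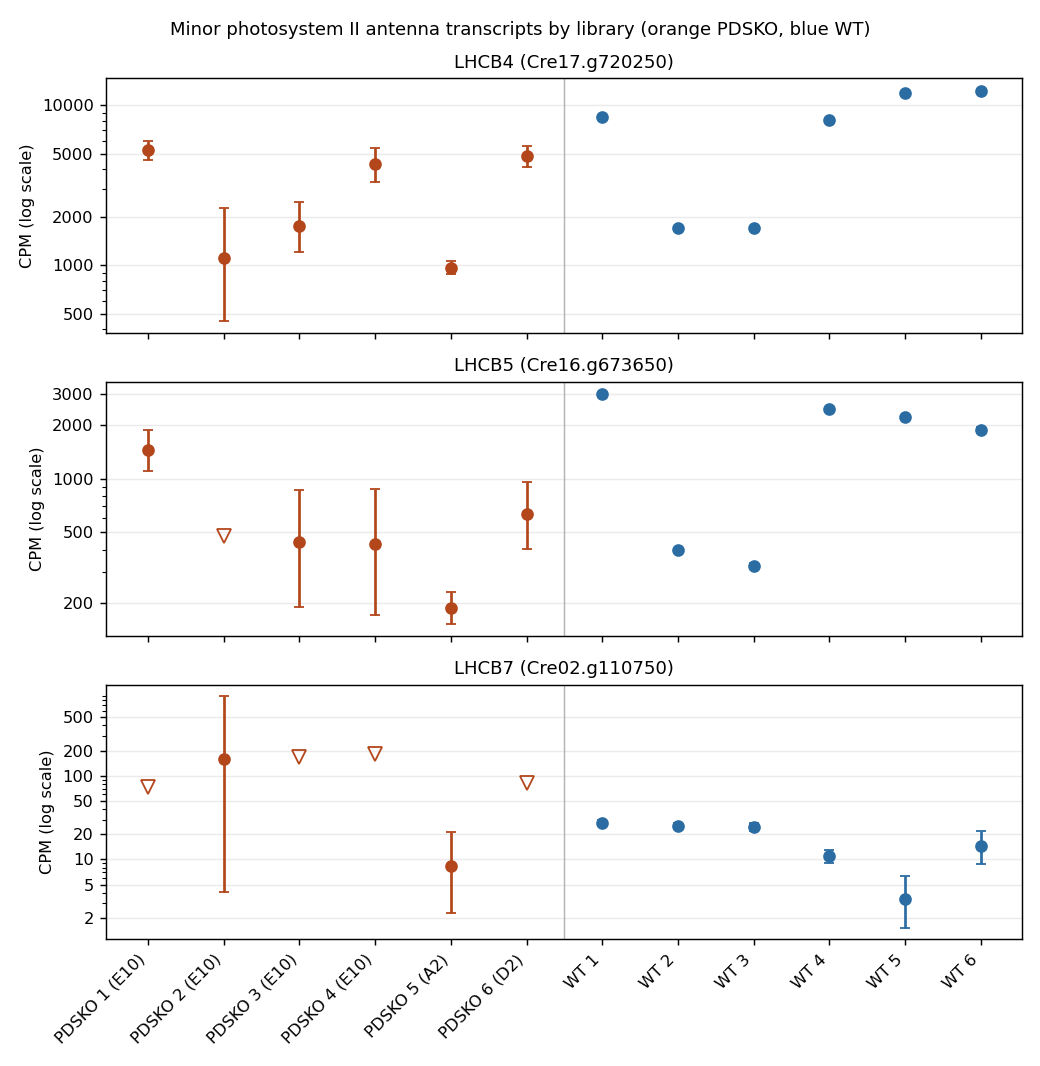
CPM of LHCB4, LHCB5 and LHCB7 on log axes, 1 panel a gene, in the 6 PDSKO libraries and then the 6 WT libraries, with exact Poisson 95% intervals and the floor of 3 counts marked where a library had 0 counts. LHCB4 in A2 and D2 (966 and 4825 CPM) lay below all of WT 4 to 6 (8122 to 12301 CPM). The same held for 41% of identifiers tested. WT 2 and WT 3 lay within the knockout range of LHCB4.

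The comparison of all PDSKO with all WT libraries asks whether the knockout went with another level of these transcripts, and none of the 3 genes passed. The log2 fold change was -1.79 ± 0.68 (SE) for LHCB4, with an adjusted p of 0.143 by edgeR's quasi-likelihood test with Benjamini-Hochberg adjustment over 4915 identifiers. For LHCB5 it was -2.04 ± 0.78 (edgeR adjusted p = 0.144) and for LHCB7 -0.64 ± 0.83 (edgeR adjusted p = 0.683). The test called 0 of the 3 members and 0% of all identifiers tested, whose median was -0.38. In none of the 3 did every PDSKO library lie below every WT library, as 2.99% of identifiers did. Unadjusted p was under 0.05 for 1006 identifiers, LHCB4 (0.0142) and LHCB5 (0.0150) among them, and DESeq2 called 423 identifiers. PDSKO 1 decided the LHCB5 call: without it LHCB5 was at -3.10 (edgeR adjusted p = 0.0447), and 632 identifiers were called. With no filter on low counts both genes were called, LHCB4 at -2.91 (edgeR adjusted p = 0.0379) and LHCB5 at -3.19 (0.0435).

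In the second title set LHCB4 and LHCB5 were lower in the knockout lines. LHCB4 averaged 2896 ± 2729 CPM in A2 and D2 (SD, n = 2) and 10821 ± 2341 CPM in WT 4 to 6 (SD, n = 3). On the log2 scale this was -2.79 ± 0.66 (SE; adjusted p = 0.0186 by edgeR). LHCB5 averaged 414 ± 317 CPM in A2 and D2 (SD, n = 2) and 2189.5 ± 286 CPM in WT 4 to 6 (SD, n = 3), at -3.15 ± 0.78 on the log2 scale (edgeR adjusted p = 0.0237). LHCB7 did not pass, at -0.40 ± 1.18 (edgeR adjusted p = 0.840). The test thus called 2 of 3 members lower, where it called 7.49% of the 8042 identifiers tested lower and 3.38% higher, and the median of all was -0.92. For LHCB4 and LHCB5 both knockout libraries were below all 3 WT libraries, as were 41% of all identifiers tested.

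These calls needed all 3 WT libraries. Without WT 4, WT 5 or WT 6 the edgeR adjusted p was 0.0970, 0.224 or 0.0752 for LHCB4 and 0.0974, 0.212 or 0.0752 for LHCB5, with log2 fold changes still at or below -2.12 and -2.53. When libraries were scaled by their totals alone, LHCB4 was at -1.81 (edgeR adjusted p = 0.139) and LHCB5 at -2.37 (0.0850).

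In line E10 no member was called. LHCB4 averaged 3109 ± 1986 CPM in E10 (SD, n = 4) and 3950 ± 3875 CPM in WT 1 to 3 (SD, n = 3), at -0.29 ± 0.86 on the log2 scale (edgeR adjusted p = 0.994). LHCB5 averaged 582 ± 620 CPM in E10 and 1245 ± 1529 CPM in WT 1 to 3, at -0.91 ± 1.21 (edgeR adjusted p = 0.994), and LHCB7 had too few counts to be tested. Of the 449 identifiers tested, edgeR called 0 (0%), 6 had an unadjusted p under 0.05 and DESeq2 called 1. E10 and WT libraries overlapped in both genes, and 3.34% of identifiers had all E10 libraries below WT 1 to 3. The sign rested on WT 1, without which both genes turned to 1.31 and 1.35. Whether the lines differed was tested as the A2 and D2 difference minus the E10 difference. It was -0.98 ± 1.22 for LHCB4 (edgeR adjusted p = 0.731), -0.80 ± 1.49 for LHCB5 (0.875) and 1.81 ± 1.81 for LHCB7 (0.637), and 1 of 9044 identifiers passed (0.0111%), none of them a member. No difference between the lines was thus shown for any of the 3 genes.

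**Figure D2:**
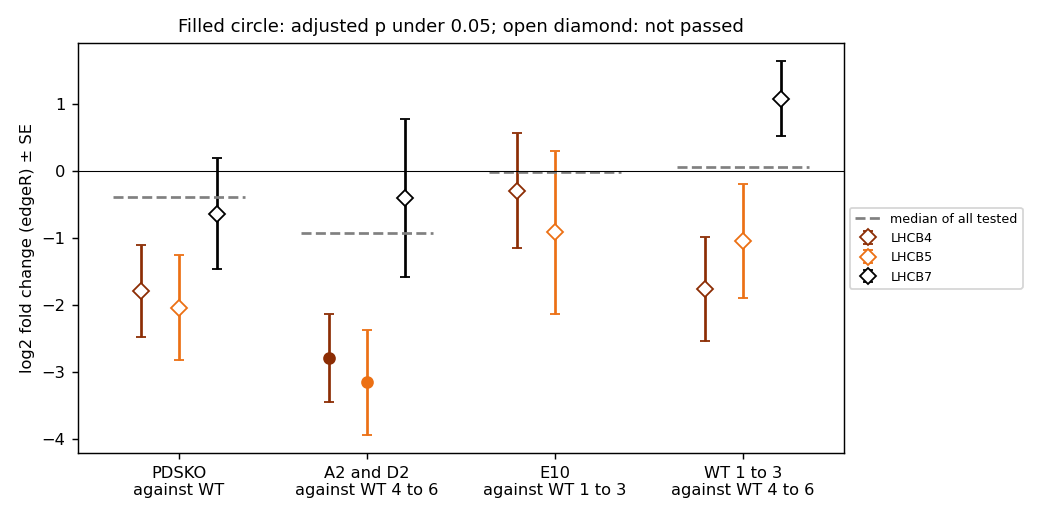
Log2 fold changes of the 3 genes with SE in 4 comparisons, and the median over all identifiers tested as a dashed line. The filled circles, LHCB4 at -2.79 and LHCB5 at -3.15 in A2 and D2 against WT 4 to 6, passed an edgeR adjusted p of 0.05, and the open diamonds did not.

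Among the WT libraries no member passed between the title sets, and the fitted values had different signs. LHCB4 averaged 3950 ± 3875 CPM in WT 1 to 3 and 10821 ± 2341 CPM in WT 4 to 6 (SD, n = 3 each), at -1.76 ± 0.78 on the log2 scale (edgeR adjusted p = 0.191). LHCB5 was at -1.04 ± 0.85 (edgeR adjusted p = 0.486). LHCB7 averaged 25.9 ± 1.55 CPM in WT 1 to 3 and 9.56 ± 5.63 CPM in WT 4 to 6 (SD, n = 3 each), at 1.08 ± 0.56 (edgeR adjusted p = 0.264). None of the 3 was among the 11.1% of 13040 identifiers called. LHCB7 was higher in all of WT 1 to 3 than in any of WT 4 to 6, a pattern that 22.2% of identifiers shared. WT 1 decided LHCB4 and LHCB5 here: without it they were at -3.22 and -3.11 (edgeR adjusted p = 0.000172 and 3.31e-05), and the number of identifiers called went up to 3288, against 1451 with it.

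Across WT libraries the minor antenna genes spanned a smaller range than the other antenna genes apart from LHCBM9. The highest WT library stood above the lowest by 7.21-fold for LHCB4 (WT 6 over WT 2), by 9.24-fold for LHCB5 (WT 1 over WT 3) and by 8.24-fold for LHCB7 (WT 1 over WT 5, which held 9 counts). Of the other 18 antenna identifiers, 15 were counted in all WT libraries, and their folds ran from 13.8 (LHCA9) to 2011 (LHCBM4). The other 3, LHCBM7, LHCBM8 and LHCBM9, were at 0 in at least 1 WT library. On the log2(CPM + 1) scale the minor antenna genes held places 2 to 4 from the smallest range among the 21, behind LHCBM9, which had almost no counts. These ranges are descriptions, with no test.

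**Figure D3:**
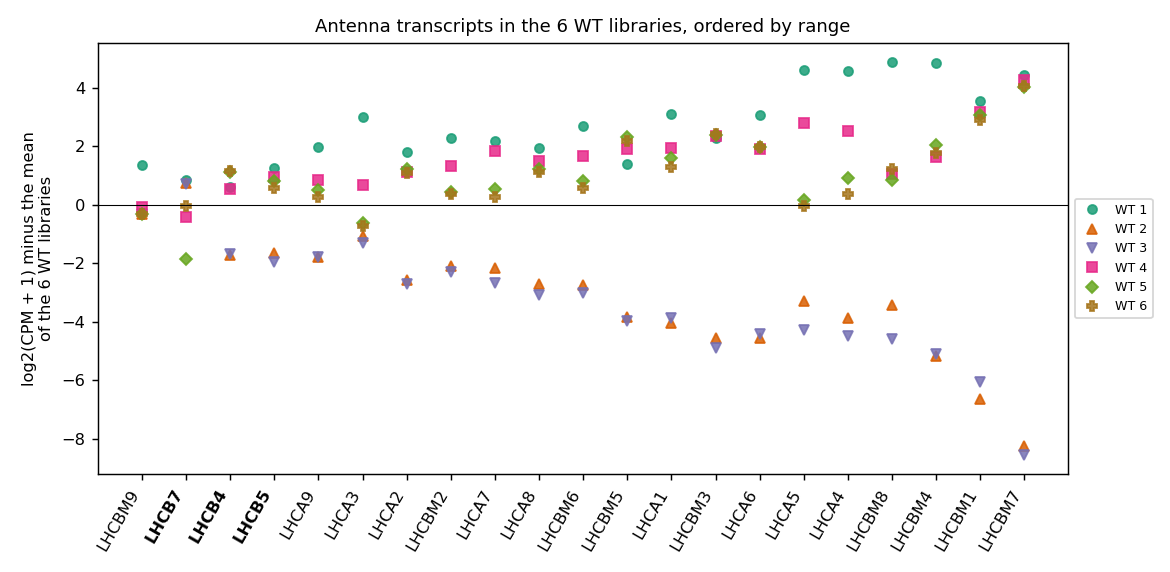
Log2(CPM + 1) of each of the 21 antenna identifiers in the 6 WT libraries, less the gene's mean over these libraries, with genes ordered by their range. LHCB7, LHCB4 and LHCB5 hold places 2 to 4 from the smallest range.

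LHCB4 took a larger share of the antenna counts in the libraries where these counts were a small part of the total. The sum of antenna counts enters both values, so they are linked by arithmetic. The LHCB4 share was 6.45% in PDSKO 1, 53.8% in PDSKO 2 (7 of 13 counts), 39.5% in PDSKO 3, 66.04% in PDSKO 4, 44.4% in A2 and 28.1% in D2. It was 6.21% in WT 1, 39.9% in WT 2, 43.9% in WT 3, 8.81% in WT 4, 14.4% in WT 5 and 15.8% in WT 6. WT 2 and WT 3 thus lay among the knockout libraries, and PDSKO 1 beside WT 1. PDSKO 1 was near WT 1 in the other antenna shares too: LHCB5 at 1.79% and 2.22%, LHCBM at 61.3% and 62.7%, LHCA at 30.5% and 28.8%. The cause of this likeness was not tested, and the labels were kept as given. In the second title set both A2 and D2 were above all of WT 4 to 6. Shares are compared here between libraries and not between genes, since 3′ tag counts are not per length.

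Over all libraries LHCB4 averaged 39.7% ± 20.8 of antenna counts in PDSKO and 21.5% ± 16.3 in WT (SD, n = 6 each). The difference of 18.2 percentage points gave p = 0.119 in an exact two-sided permutation test (0.238 adjusted over the 2 share tests), a comparison chosen after the data were seen. Within title sets the exact p was 0.114. Without PDSKO 1 the difference was 24.9 points, with an exact permutation p of 0.0281 that was not adjusted over the 2 share tests. With any other single library left out the unadjusted exact permutation p ran from 0.0736 to 0.232. LHCBM genes took 24.2% of antenna counts in A2 and 47.5% in D2, against 67.2% to 68.6% in WT 4 to 6. LHCA genes took 22.3% in A2 and 20.7% in D2, against 14.6% to 19.95% in WT 4 to 6.

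**Figure D4:**
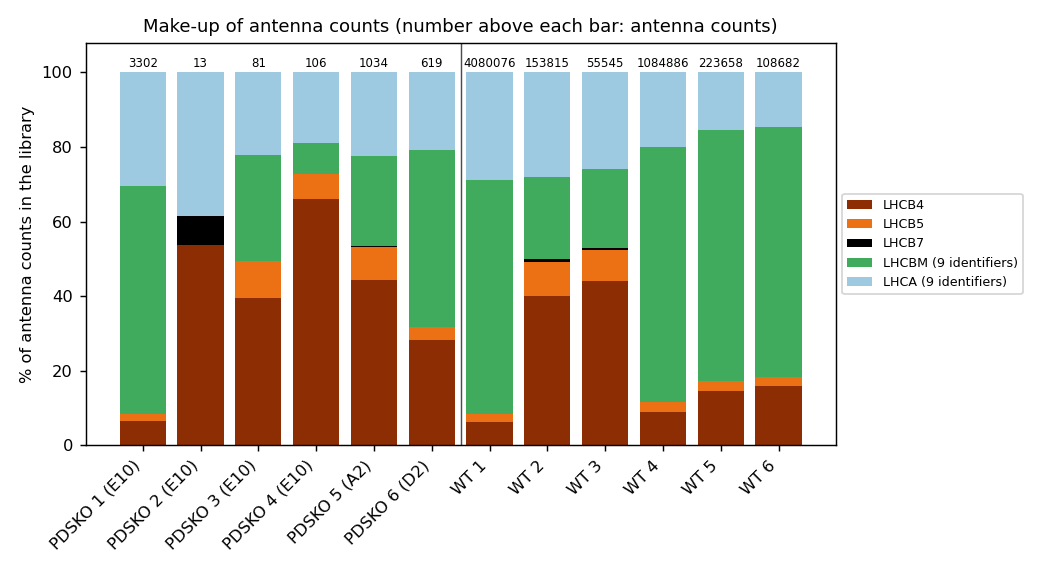
Share of each library's antenna counts taken by LHCB4, LHCB5, LHCB7, LHCBM and LHCA genes, with the number of antenna counts above each bar. LHCB4 took 28.1% to 66.04% in PDSKO 2 to 6 and 39.9% and 43.9% in WT 2 and WT 3, against 6.45% in PDSKO 1 and 6.21% to 15.8% in the other WT libraries.

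The balance between LHCB4 and LHCB5 counts lay in an overlapping range in both genotypes. LHCB4 took 78.3% of their joint counts in PDSKO 1, 80.0% in PDSKO 3, 90.9% in PDSKO 4, 83.6% in A2 and 88.3% in D2. Its share was 73.7% in WT 1, 81.1% in WT 2, 84.1% in WT 3, 76.8% in WT 4, 84.4% in WT 5 and 86.7% in WT 6. PDSKO 2, with 7 of 7 counts from LHCB4, was left out because it held under 10. The means were 84.2% ± 5.36 in PDSKO (SD, n = 5) and 81.1% ± 4.99 in WT (SD, n = 6). Their difference of 3.12 points was within the spread between libraries (exact two-sided permutation p = 0.344 over 462 arrangements, 0.365 within title sets). No scaling between libraries enters this value.

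**Figure D5:**
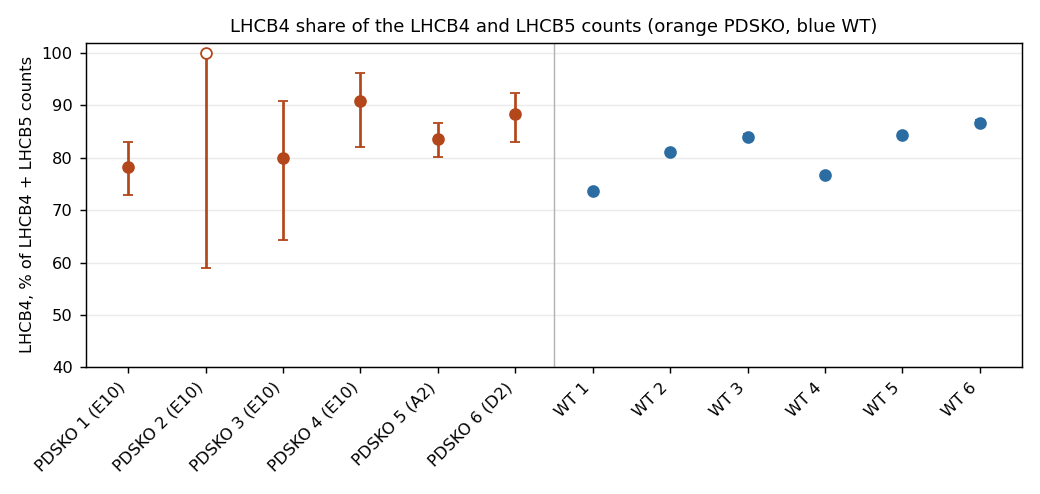
LHCB4 as a percentage of LHCB4 plus LHCB5 counts in each library, with exact Clopper-Pearson 95% intervals; the axis does not start at 0. Libraries with 10 or more counts lie between 73.7% and 90.9%, and the groups overlap.

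Most other antenna genes were lower in A2 and D2 too. Of the other 18 antenna identifiers 17 were tested, and 14 were called lower and 0 higher, against 7.49% of all identifiers tested called lower. Their median was -4.05 on the log2 scale, against -0.92 over all identifiers tested. Of the 9 LHCBM genes of the major antenna, 7 of 8 tested were called lower, with a median of -5.64. LHCBM3 was at -5.64 ± 0.77 (edgeR adjusted p = 7.5e-04), LHCBM1 at -5.39 ± 0.78 (0.00104) and LHCBM7 at -5.90 ± 0.88 (0.00110). Reads that mapped to several places were discarded, so values of single LHCBM genes, which are close copies of each other, are uncertain. Of the 9 LHCA genes 7 were called lower, with a median of -3.46, LHCA1, for one, at -4.31 ± 0.90 (edgeR adjusted p = 0.0117). The log2 fold changes of LHCB4 and LHCB5 were smaller in size than either median, a description with no test of the difference. They were not the smallest: the LHCBM genes tested reached -2.28, smaller than both, and the LHCA genes -2.84, smaller than LHCB5. Without WT 4 edgeR called 1 of the other 18 identifiers, without WT 5 it called 4 and without WT 6 it called 7.

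Partner genes were given from 2 lists. The 4 extrinsic subunits of photosystem II, small proteins on the lumen side of the core, had a median of -2.05, and 1 passed, PSBR1 at -2.88 ± 0.70 (edgeR adjusted p = 0.0216). PSBP1 was at -1.94 (0.0529) and PSBO1, of the oxygen-evolving complex, at -2.16 (0.0566), and neither passed. Of 11 genes for building and regulating the antenna 5 were tested, with a median of -0.30, and 1 was called lower and 1 higher. The lower one was CAO1, which makes chlorophyll b, at -5.41 ± 1.39 (edgeR adjusted p = 0.0265) with 1 count in A2 and 0 in D2. The D2 floor of 83.2 CPM lay within the CAO1 range of WT 4 to 6 (56.0 to 115 CPM), so no loss was detectable in D2 by itself. NAB1, a repressor of LHCBM translation, was at -3.15 ± 1.11 (edgeR adjusted p = 0.0675).

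STT7, the kinase needed for antenna phosphorylation in state transitions, was the higher one, at 3.28 ± 0.88 (edgeR adjusted p = 0.0290). STT7 stood at 225 CPM in A2 and 832 in D2, against 42.2, 14.5 and 38.8 CPM in WT 4, WT 5 and WT 6. It had 0 counts in all 7 libraries of the first title set, WT 2 with its 35992976 counts included. Over WT 1 to 3 the floor was 0.0374 CPM, at least 852-fold lower than WT 4 to 6, as counted in the deposited table. Whether both title sets were counted against the same transcripts was not tested. Neither the CAO1 nor the STT7 call held without WT 4, WT 5 or WT 6, when 0 of the 11 genes passed.

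LHCB4 and LHCB5 had similar profiles across the 6 WT libraries, and LHCB7 did not share them. Likeness was measured as the root mean square difference of log2(CPM + 1), centred on each gene's mean, over the 6 WT libraries. It was 0.42 between LHCB4 and LHCB5, and LHCB5 was the 42nd nearest of 6830 candidates to LHCB4. It was 1.95 between LHCB7 and LHCB4 and 1.93 between LHCB7 and LHCB5, which placed LHCB4 and LHCB5 6241st and 6231st for LHCB7. The nearest identifiers to LHCB4 were Cre06.g259450 at 0.12, Cre14.g619450 at 0.19, Cre01.g051500 at 0.20, Cre05.g244950 at 0.20 and Cre03.g199150 at 0.20. In A2 and D2 each of these 5 had a negative log2 fold change, and 2 were called lower. For LHCB5 they were Cre10.g420350 at 0.13, Cre10.g422300 at 0.18, Cre09.g396213 (PSBO1) at 0.21, Cre05.g233900 at 0.22 and Cre13.g572600 at 0.23. Each again had a negative log2 fold change, and 3 were called lower. For LHCB7 they were Cre03.g172950 at 0.18, Cre01.g027100 at 0.20, Cre10.g455750 at 0.20, Cre06.g256420 at 0.21 and Cre06.g256750 at 0.22. Here 0 of the 5 passed, and only Cre06.g256420 had a positive log2 fold change, at 1.27. Over all identifiers tested in A2 and D2, edgeR called 7.49% lower. The profiles include WT 4 to 6, the reference of these calls, so profiles and calls are not independent. These are descriptions over 6 libraries labelled as 1 line.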

How the data were processed

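Raw counts per identifier were deposited by the authors for 12 libraries. Per the labels' protocols, reads were aligned with BWA MEM to the C. reinhardtii v5.6 transcriptome, reads that mapped to several places were discarded, and counting used the MapAndGo script. Whether molecular identifiers were used is not given in the labels. Genes with near-identical copies can lose reads by this rule. The 3 genes were chosen by name, but they and the lists were chosen with earlier results of these data known. CPM used the deposited totals. Tests were edgeR 4.0.16 quasi-likelihood fits (R 4.3.3) on all identifiers, with TMM scaling, filterByExpr and Benjamini-Hochberg adjustment at 0.05, and the fitting code was tested on simulated counts. DESeq2 1.42.0, other scalings, no filter and leaving out libraries were alternatives. Shares used exact Clopper-Pearson intervals and exact permutation tests. Named beside the genes were the 5 nearest WT profiles among identifiers with a mean of 10 CPM or more, and up to 3 genes a list by smallest p in A2 and D2. Same-numbered E10 and WT 1 to 3 libraries deviated together (correlations 0.39, 0.14 and 0.26), and a replicate block there called 0 identifiers, as without it. Libraries of a group differed beyond sampling noise (lowest chi-square per degree of freedom 3.95), so none was treated as the same library counted again. The check cannot tell separate cultures from repeat preparations of 1 culture. No protein or promoter sequences were used here.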

Additional observations from a re-analysis of the deposited data

Results flagged for a closer look

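LHCB7 in PDSKO 2 stood far from the other knockout libraries in 3 measures, all of them set by 1 count in a library of 6279. Its level was 159 CPM, while the other PDSKO libraries lay between 0 and 8.42 CPM, and the same held among the 4 E10 libraries. Its share of antenna counts was 7.69% (1 of 13) and its share of the counts of the 3 minor antenna genes 12.5% (1 of 8), both among PDSKO and among E10 libraries. The exact Poisson 95% interval of that 1 count ran from 4.03 to 887 CPM and so included the level of every WT library except WT 5, at 3.35 CPM. Of 41 groups of values examined in this way 6 stood out, all through this 1 count, so the 6 are not separate events. Chance alone gives about 1 in 20 for separate groups, a rate that cannot be set against these 6.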

How the results depend on the processing

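Of 244 alternative values for the 3 genes and the 2 share tests, 222 kept both direction and side of the threshold, 8 lost a call, 6 gained one and 8 changed sign; where no cause follows from fewer libraries or genes, the cause was not tested. For PDSKO against WT, no filter on low counts gave calls for LHCB4 (-2.91) and LHCB5 (-3.19). Leaving out each library gave LHCB5 -3.10 to -1.66, called without PDSKO 1. With DESeq2 LHCB7 was at 0.043. The replicate numbers did not pair all libraries (correlations of -0.09 to 0.38), and 4 of 6 PDSKO libraries correlated best with their own number. The replicate block gave LHCB4 -1.70 (edgeR adjusted p = 0.0648) and LHCB5 -2.22 (0.0514) and called 69 identifiers; for E10 it gave LHCB4 -0.16 and LHCB5 -0.54. The count of identifiers called in PDSKO against WT ran from 0 to 1257 (423 with DESeq2, 164 under RLE, where the median of all tested was 0.29). For A2 and D2 it ran from 13 without WT 4 to 2486 without D2, with 512 for library totals alone and 1470 with no filter. There, library totals alone ended the calls of LHCB4 (-1.81) and LHCB5 (-2.37). Leaving out each library gave LHCB4 -3.57 to -2.12, LHCB5 -3.56 to -2.53 and LHCB7 -8.40 to 0.13; without A2 or D2 the lone knockout library is assumed to vary like WT. RLE scaling put LHCB7 at 0.074. For E10, leaving out each library gave LHCB4 -1.99 to 1.31 and LHCB5 -3.22 to 1.35. For the WT sets it gave LHCB4 -3.22 to -1.28 and LHCB5 -3.11 to -0.50, and LHCB5 was at 0.35 without WT 2 and WT 3, libraries picked for low antenna counts. DESeq2 called 2240 there. For the difference of the lines it gave LHCB5 -2.95 to 0.54 and LHCB7 -7.53 to 10.36, and the count of calls ran from 0 to 665 (DESeq2). The LHCB4 share of antenna counts differed by 12.9 to 24.9 points, with an unadjusted exact permutation p under 0.05 only without PDSKO 1. LHCB7 gave no value where the filter dropped it. Depth limits LHCB7 in every PDSKO library.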
